A study of Mus musculus with 2 samples.

Results

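The cells described here are 365 mouse embryonic stem cells from a culture called LBPXRS that carried the largest share of RNA from Gata2, Aqp3, Trpm1 and Slc26a11. They were taken from 2705 filtered LBPXRS cells, and the whole series holds 4488 filtered cells. Cells with at least 1000 detected genes and at most 10% mitochondrial UMIs (unique molecular identifiers, each standing for 1 captured RNA molecule) were kept. The 270 cells with the highest share of Krt8 and Krt18 UMIs were then dropped. Of the 2435 that were left, the 15% with the highest summed share of the 4 rule genes were taken, and the 2070 others served for comparison.

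Both cultures of the series were R1 embryonic stem cells grown in N2B27 medium with LIF and BMP4 and harvested at 72 hours, with 1 library per culture. The LB culture, on gelatin, received nothing else. The LBPXRS culture, on fibronectin, also received the MEK inhibitor PD0325901, the tankyrase inhibitor Xav939, the activin and NODAL receptor inhibitor SB431542 and a resorcyclic lactone whose target the labels do not name. Medium and substrate therefore cannot be told apart, and with 1 library each there is no test across samples and no p-value.

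GATA2 is a zinc finger transcription factor known from blood progenitors and trophoblast, and AQP3 is a membrane channel for water and glycerol. TRPM1 is a cation channel of melanocytes and retinal bipolar cells whose gene is a known target of MITF, and SLC26A11 is an anion transporter. MITF and its relatives TFE3 and TFEB bind E-box and M-box sequences and drive genes of lysosomes and pigment granules. In embryonic stem cells TFE3 is held out of the nucleus by folliculin (Flcn) with its partners Fnip1 and Fnip2, and this control bears on how cells leave the naive state.

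The filtered LBPXRS cells had a median of 19058 UMIs and the 1783 filtered LB cells 25418. The libraries shared 10 barcodes of the 5119 deposited. Transcripts of 4 Y-linked genes gave 2872 UMIs in LB and 1 UMI in LBPXRS, although both carry the same line label, so comparisons with LB also compare cells that differ in this respect. The Gata2 and Aqp3 high cells gave 6559271 UMIs in all and the other cells 40320462. Their median depths were 18163 and 19421 UMIs per cell. At 5000 UMIs per cell, the high cells held a median of 1611 detected genes and the other cells 1706, with 24 and 55 cells too shallow to be thinned. The unthinned medians were 3519 and 3860.5 genes. Scrublet, a doublet caller, marked 2 of the high cells and 11 of the other cells, and these were kept. Cells with under 0.5% mitochondrial UMIs made up 46 of the high cells (12.6%, 95% exact binomial interval 9.38 to 16.4%) and 95 of the others (4.59%, 3.73 to 5.58%). Results without those cells are given after the comparison with LB.

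The rule genes were high by construction, so their levels are a description. The lowest of the high cells held 209.44 CPM (counts scaled to a total of 1000000) of the rule genes together and the highest of the other cells 209.13, with a median of 377 in the former and 0 in the latter. Aqp3 supplied 51.0% of the rule-gene UMIs of the high cells, Gata2 29.1%, Trpm1 10.4% and Slc26a11 9.52%. All 4 were detected in 48 of the 365 cells (13.2%), 3 in 128, 2 in 130 and only 1 in 59 (16.2%). Among the other cells, 1066 (51.5%) had no UMI of any rule gene. The choice thus rested mostly on Aqp3 and Gata2.

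Levels are UMIs summed over a group of cells on the same scale, with exact 95% Poisson intervals that cover counting error only. Gata2 stood at 139 CPM (130 to 148) in the high cells, 5.80 (5.08 to 6.60) in the other cells, 49.3 in the cells dropped for Krt8 and Krt18, and 1.69 in LB. Aqp3 stood at 243, 22.6, 86.4 and 2.86 CPM in the same order. Trpm1 stood at 49.5, 7.84, 24.0 and 4.84 CPM, and Slc26a11 at 45.4, 6.75, 14.9 and 2.07. The keratin-high cells were between the high and the other cells in all 4, and LB was lowest in all 4. Bhlhe41, a transcriptional repressor of the circadian clock that the rule did not use, stood at 22.3 CPM (18.8 to 26.2) in the high cells, 2.98 (2.47 to 3.56) in the other cells, 16.0 in the keratin-high cells and 2.22 in LB. Its ratio between the high and the other cells was 7.48 (5.83 to 9.60).

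**Figure D1:**
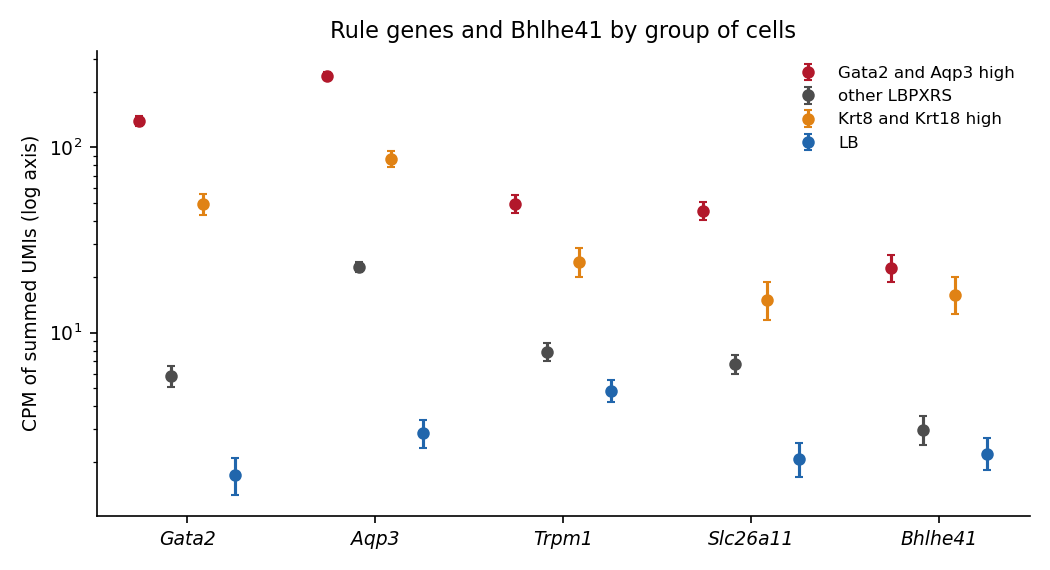
CPM of summed UMIs (log axis) for the 4 rule genes and Bhlhe41 in the Gata2 and Aqp3 high cells, the other LBPXRS cells, the cells dropped for Krt8 and Krt18, and all filtered LB cells; bars are exact 95% Poisson intervals. The keratin-high cells lie between the high cells and the other cells for each gene, as for Gata2 with 139, 49.3 and 5.80 CPM.

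After thinning each cell to 5000 UMIs, Gata2 was detected in 34.9% of the high cells, 2.98% of the other cells, 14.7% of the keratin-high cells and 0.635% of LB cells. Aqp3 was detected in 64.2%, 10.9%, 24.9% and 1.27% of the same groups, and Bhlhe41 in 9.09%, 1.54%, 4.91% and 1.04%. Without thinning, Gata2 was detected in 63.3% of the high cells, 8.41% of the others and 3.08% of LB cells. LB is a separate library whose cells also hold these transcripts, so its shares do not measure free RNA in LBPXRS, and that background was not measured.

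The 5 genes lie on 4 chromosomes in the GENCODE M21 annotation of GRCm38. Gata2 (ENSMUSG00000015053) is at chr6:88193891-88207032 on the plus strand and Bhlhe41 (ENSMUSG00000030256) at chr6:145858243-145865558 on the minus strand. Aqp3 (ENSMUSG00000028435) is at chr4:41092722-41098183, Trpm1 (ENSMUSG00000030523) at chr7:64153835-64269775 and Slc26a11 (ENSMUSG00000039908) at chr11:119355557-119381079. Trpm1 holds Mir211 within it and other annotated transcripts on the opposite strand, and the sources used here do not say whether counting used strand, so its reads could include theirs. The median log2 ratio between the high and the other cells lay between -0.17 and -0.083 on each autosome and the X chromosome, so no chromosome stood apart.

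To read a rule gene without choosing on it, the same number of cells was chosen from the other rule genes alone. Chosen without Gata2, the cells (305 of them the same) held 99.6 CPM of Gata2 and the rest 12.2, a ratio of 8.15 (7.24 to 9.18). Chosen without Aqp3, the cells (264 the same) held 173 CPM of Aqp3 and the rest 33.3, a ratio of 5.20 (4.80 to 5.63). The ratio of Trpm1 chosen without it was 3.58 (3.03 to 4.21), at 36.0 against 10.1 CPM. That of Slc26a11 chosen without it was 4.77 (4.03 to 5.65), at 38.0 against 7.96 CPM. Each of the 4 was therefore higher in cells chosen by the other rule genes, by less than when its own counts entered the choice. The 4 genes were put together with earlier results of these data known, so ratios above 1 could be foreseen and are a description. With the score from thinned cells, the log2 ratio with own counts left out fell from 2.93 to 2.26 for Gata2 and from 2.34 to 1.54 for Aqp3. When the UMIs of each cell were split at random, the cells chosen on one part and the levels read from the part left over, the ratios were 15.2 for Gata2, 7.45 for Aqp3, 4.25 for Trpm1, 5.67 for Slc26a11 and 8.18 (5.55 to 12.1) for Bhlhe41.

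**Figure D2:**
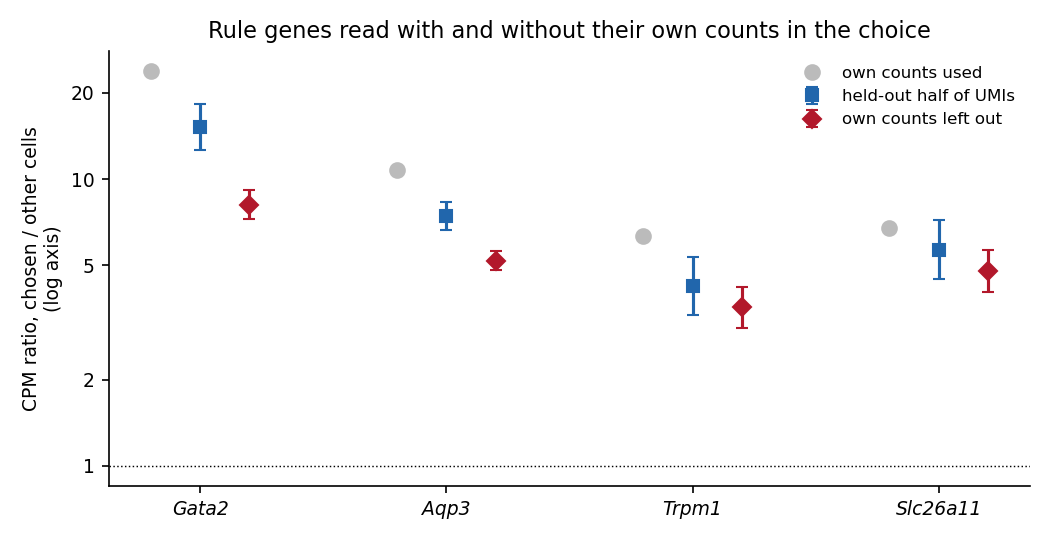
Ratio of CPM between chosen and other LBPXRS cells (log axis) for each rule gene, with its own counts in the choice (grey), from the UMIs held out of the choice (blue) and with its own counts left out (red); bars are exact 95% intervals of the ratio. With own counts left out the ratios were 8.15, 5.20, 3.58 and 4.77, all above 1, for genes put together with earlier results of these data known.

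In single cells, Aqp3, Trpm1, Slc26a11 and Bhlhe41 were each detected more often where Gata2 was. Of 2356 cells thinned to 5000 UMIs, Aqp3 was detected in 48.6% (41.1 to 56.2%) of the 179 cells with a Gata2 UMI and in 16.1% (14.6 to 17.7%) of the 2177 without. Bhlhe41 was detected in 9.50% (5.63 to 14.8%) of cells with Gata2 and in 2.07% (1.51 to 2.76%) of cells without. Trpm1 was detected in 15.6% (10.7 to 21.8%) of cells with Gata2 and in 5.51% (4.59 to 6.56%) of cells without, and Slc26a11 in 13.4% (8.78 to 19.3%) and 5.01% (4.13 to 6.01%). Both were also detected more often with Aqp3, Trpm1 in 48 of the 438 cells with Aqp3 and 100 of the 1918 without, and Slc26a11 in 42 and 91 of these cells. Between Trpm1 and Slc26a11 themselves the shares of thinned cells were not resolved at this depth, with Slc26a11 in 8.78% (4.76 to 14.6%) of the 148 cells with Trpm1 and in 5.43% (4.53 to 6.46%) of those without. From all UMIs, cells chosen on Trpm1 alone had a Slc26a11 ratio of 2.57 (2.14 to 3.08), and cells chosen on Slc26a11 alone a Trpm1 ratio of 2.41 (2.02 to 2.86). Choosing cells on 1 gene alone gave a Bhlhe41 ratio of 6.59 for Gata2, 6.18 for Aqp3, 2.68 for Trpm1 and 2.68 for Slc26a11.

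Promoters are shown for Trpm1 and Bhlhe41 because Trpm1 is a known MITF target and Bhlhe41 was the marker outside the rule. The windows are from RefSeq on GRCm38.p6, from 250 bases before to 50 bases after a start, written 5′ to 3′ on the gene's strand. They were searched on both strands for the E-box CACGTG, which reads the same on both, the M-box TCATGTG, which is CACATGA on the other strand, and the GATA motif AGATAA, which reads TTATCT there. None of these contains another. Capitals mark an E-box or an M-box. The first Trpm1 start, at chr7:64153585-64153884 on the plus strand, has an M-box 142 bases before the start and also the GATA motif, left in lower case. The second, at chr7:64185209-64185508, has an E-box 229 bases before it. The Bhlhe41 window, at chr6:145865371-145865670 on the minus strand, has an E-box 153 bases before the start.
Trpm1 start 1: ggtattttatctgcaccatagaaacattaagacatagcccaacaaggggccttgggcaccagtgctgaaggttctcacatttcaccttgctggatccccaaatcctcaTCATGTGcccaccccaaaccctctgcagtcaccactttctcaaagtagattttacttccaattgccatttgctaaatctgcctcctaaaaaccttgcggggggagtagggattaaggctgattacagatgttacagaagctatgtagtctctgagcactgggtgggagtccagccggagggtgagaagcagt
Trpm1 start 2: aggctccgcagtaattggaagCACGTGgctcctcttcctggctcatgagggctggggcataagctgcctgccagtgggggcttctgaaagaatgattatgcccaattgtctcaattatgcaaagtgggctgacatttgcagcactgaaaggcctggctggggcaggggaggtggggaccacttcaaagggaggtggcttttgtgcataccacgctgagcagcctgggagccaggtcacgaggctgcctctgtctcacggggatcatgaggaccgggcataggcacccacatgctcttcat
Bhlhe41: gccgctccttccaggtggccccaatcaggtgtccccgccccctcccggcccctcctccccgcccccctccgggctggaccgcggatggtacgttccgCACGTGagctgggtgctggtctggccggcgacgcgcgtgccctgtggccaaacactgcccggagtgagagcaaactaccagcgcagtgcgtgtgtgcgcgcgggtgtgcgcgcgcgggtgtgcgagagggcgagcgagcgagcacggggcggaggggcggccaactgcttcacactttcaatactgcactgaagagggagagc

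Neither window of Gata2 nor that of Aqp3 held any of the 3 motifs. A match is a run of letters and was not tested as a binding site.

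Across all genes, the high cells were compared with the other cells by log2((CPM + 1)/(CPM + 1)), with genes counted as different by size alone at 1.5-fold. Of 7014 genes with at least 10 CPM in either group, 302 were higher in the high cells (4.31%) and 528 lower (7.53%). The median log2 ratio of all these genes was -0.14, which moved to -0.02 with TMM scaling, and the split then was 406 higher and 285 lower. With the score from cells thinned to 5000 UMIs, 180 genes were higher and 200 lower. In the UMIs held out of the choice, 300 of 7010 genes were higher (4.28%) and 528 lower (7.53%), with a median of -0.12. Of the 302 higher genes 249 were also past 1.5-fold there, and of the 528 lower genes 352. The held-out UMIs were part of the counts that called these genes, and 287 of the 365 cells were the same. This overlap was thus largely set in advance and is no separate check. The 302 also include the rule genes. These counts have no replicate behind them.

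Outside the rule, Dusp4 and Bhlhe41 had the highest log2 ratios among genes with at least 20 CPM, 2.69 and 2.55 with the pseudocount of 1, although Bhlhe41 had the higher plain ratio. Dusp4 encodes a nuclear phosphatase of ERK and other MAP kinases. Dusp4 stood at 44.2 CPM (39.3 to 49.6) in the high cells, 6.00 (5.27 to 6.81) in the other cells, 22.4 in the keratin-high cells and 26.3 in LB. Its ratio was 7.37 (6.19 to 8.77), so its level in the high cells was above LB while that in the other cells was below it. S100a13, a small calcium-binding protein gene, stood at 270 against 50.2 CPM, and its neighbour S100a1 at 105 against 28.3. Their log2 ratios were 2.41 and 1.86. Cyba, a subunit of the NADPH oxidase, stood at 293 against 73.3 CPM, a log2 ratio of 1.99. Gpx6, a glutathione peroxidase, gave 2.23 and Gstt2, a glutathione transferase, 1.88.

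Pmel, the scaffold protein of pigment granules, stood at 30.9 CPM (26.8 to 35.5) against 7.96 (7.11 to 8.88), a log2 ratio of 1.83. The rest of the 15 highest were Bhlhe41 at 2.55, Ankrd33b at 2.04, Rab3il1 at 1.86, Inka1 at 1.77, Mfsd11 at 1.66, Ahnak2 at 1.64, Uap1l1 at 1.62 and Fkbp6 at 1.60. Mfsd11 overlaps Mettl23 on the same strand, and Bhlhe41, Pmel, Cyba and Inka1 overlap genes on the other strand, so their reads could be shared. In the held-out UMIs, which were part of the counts these genes were picked from, their log2 ratios ranged from 1.41 for Mfsd11 to 2.60 for Bhlhe41.

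The lowest log2 ratio among genes with at least 20 CPM was that of Id1, an inhibitor of basic helix-loop-helix factors and a direct target of BMP signalling. It gave 13 UMIs, or 1.98 CPM (1.06 to 3.39), in the high cells and 20.2 CPM (18.8 to 21.6) in the other cells, against 19.6 in the keratin-high cells and 175 in LB. The ratio was 0.0982 (0.0520 to 0.169), a log2 ratio of -2.83. Mycn, a growth-promoting transcription factor of embryonic stem cells, stood at 22.1 against 95.6 CPM (-2.06). Sgk1, a serum-regulated and glucocorticoid-regulated kinase, stood at 18.6 against 78.0 (-2.01). Olig2, a neural bHLH factor, stood at 8.99 against 36.2 (-1.90) and had 1 UMI in LB.

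Otx2, a homeobox factor of the formative state, stood at 12.2 against 43.0 CPM (-1.74), with overlapping transcripts on both strands. Chac1, a glutathione-degrading enzyme of the stress response, gave -1.78, the noncoding RNA gene Eprn -1.71, the zinc finger gene Zfp296 -1.58, the RNA-binding factor gene Rbm10 -1.57 and the elongation factor gene Tcea3 -1.29. Cdc42ep3, Nfib, Gpt2 and Tcf7l1 gave -1.27, -1.19, -1.16 and -1.16. Zfp296, Rbm10, Cdc42ep3, Nfib and Tcf7l1 have annotated overlaps. With the score from thinned cells Id1 gave -1.99, Mycn -1.47, Chac1 -0.99, Zfp296 -0.59 and, among the higher genes, Dusp4 2.02. In the held-out UMIs the log2 ratios of these 14 ranged from -2.99 for Id1 to -0.96 for Tcf7l1.

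**Figure D3:**
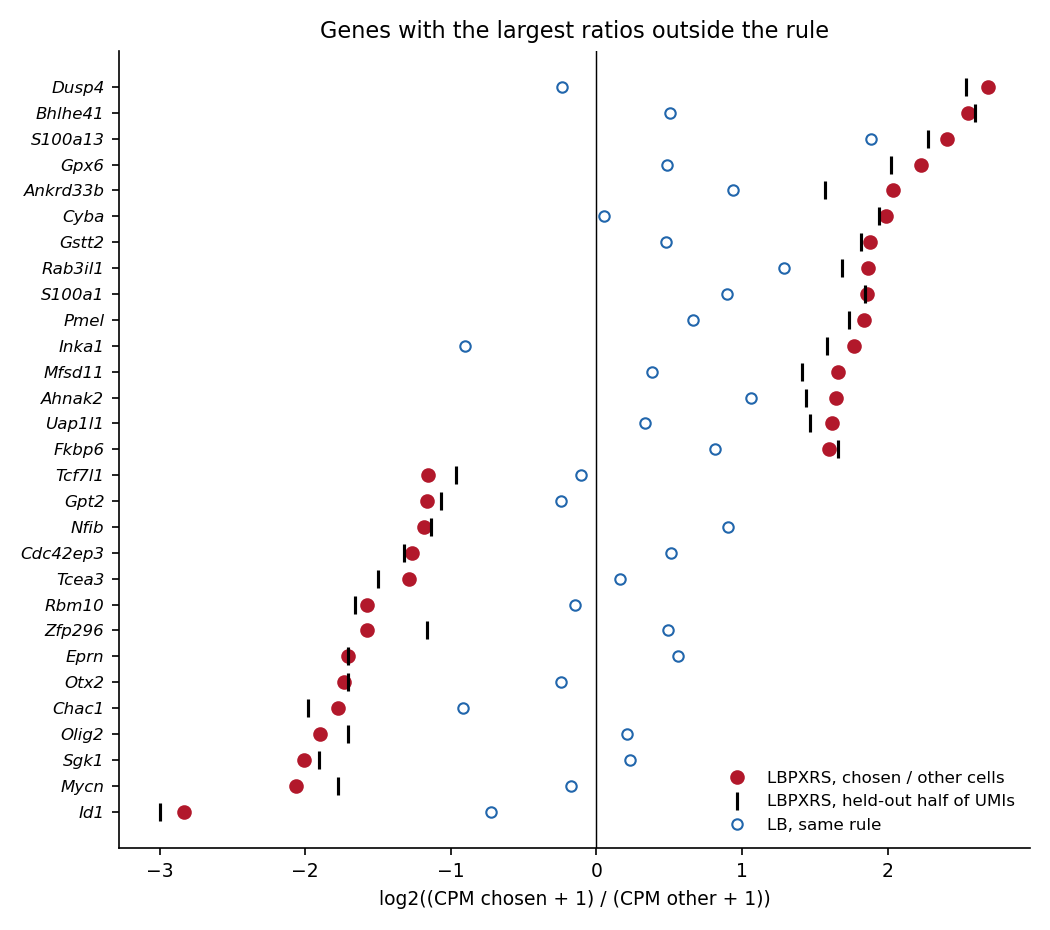
log2 ratio of CPM between chosen and other cells for the 15 highest and 14 of the lowest genes outside the rule, in LBPXRS (red), in the LBPXRS UMIs held out of the choice (black) and in LB with the same rule (open blue). The red marks run from 2.69 for Dusp4 to -2.83 for Id1, the black marks are from UMIs that also entered the choice of these 29 genes, and the LB marks lie on both sides of 0 within each set.

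Lists of genes are described by how many of their tested members passed 1.5-fold, against 4.31% higher and 7.53% lower over all genes. A gene at a low level could enter only through the group in which it was higher, so these counts are descriptions. The list of MITF and TFE factors, their regulators and targets had 15 of 20 genes tested, with 9 higher, 1 lower and a median log2 ratio of 0.85. Gpnmb, a lysosomal and melanosomal glycoprotein, stood at 14.6 against 2.33 CPM (2.23). The folliculin partners Fnip2 and Fnip1 gave 1.17 and 1.06, Flcn 0.85, and the lysosomal Rag GTPase genes Rragd and Rragc 0.97 and 0.69. Mcoln1, the lysosomal calcium channel, stood at 26.2 against 12.2 CPM (1.04), and Uvrag, an autophagy factor, gave 0.88. The factors themselves were not higher. Tfe3 stood at 26.2 CPM (22.4 to 30.4) against 53.4 (51.2 to 55.7), a ratio of 0.491 (0.418 to 0.574), and the log2 ratios of Tfeb and Mitf were -0.44 and -0.25. Tyr, Tyrp1 and Dct, the enzymes of melanin synthesis, had no UMI in the high cells and 1, 0 and 3 in the others. Rragc gave 0.41 and Uvrag 0.54 with the score from thinned cells, both under the 1.5-fold limit. Many list genes have annotated overlaps, among those named here Fnip1, Fnip2, Uvrag, Rragc, Rragd, Mitf, Ctsa, Hexa, Lamp1, Bhlhe40, Dbp, Nr1d1, Pou5f1 and Sox2.

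The lysosome list had 23 of 25 genes tested, with 15 higher, none lower and a median of 0.76. Its summed level was 3534 CPM in the high cells, 1919 in the other cells, 2575 in the keratin-high cells and 1442 in LB. Among lysosomal hydrolases, Ctsa (cathepsin A) stood at 149 CPM (140 to 159) against 57.8 (55.5 to 60.2), Neu1 (sialidase) at 72.3 against 28.9 and Hexa (hexosaminidase A) at 315 against 140. Their log2 ratios were 1.35, 1.29 and 1.16. Among membrane proteins, Cd63 stood at 417 against 199 CPM (1.06) and Lamp1 at 608 against 326 (0.89). Of the proton pump subunits, Atp6v0d1 gave 1.07 while Atp6v1a gave 0.31, Atp6v1h 0.31 and Atp6v0a1 -0.22. When 365 cells were instead taken by their share of lysosome-list UMIs, 204 of the Gata2 and Aqp3 high cells (55.9%) and 161 of the other cells (7.78%) were among them.

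The circadian clock list, which does not hold Bhlhe41, had 8 of 19 genes tested, with 6 higher, none lower and a median of 0.76. Bhlhe40, the close relative of Bhlhe41, stood at 14.3 CPM (11.6 to 17.5) against 3.99 (3.40 to 4.66), with 18.1 in LB. The output factors Dbp and Tef gave 0.92 and 0.67, the period gene Per1 0.84, the repressors Nr1d1 and Ciart 0.83 and 0.70. Of the core activators, Clock gave -0.40, and Arntl, at 3.35 against 5.93 CPM, was below the tested level. All 6 were at low levels, from 10.2 to 18.6 CPM in the high cells. Bhlhe40, Dbp, Per1, Nr1d1 and Ciart reached 10 CPM in the high cells only, so the count and the median rest on that minimum. The median was 0.39 at a minimum of 1 CPM and 0.49 with the score from thinned cells, both under the 1.5-fold limit. In that last setting Per1, Ciart and Tef also fell under it, at 0.36, 0.40 and 0.49. No daily rhythm can be read from 1 time point.

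**Figure D4:**
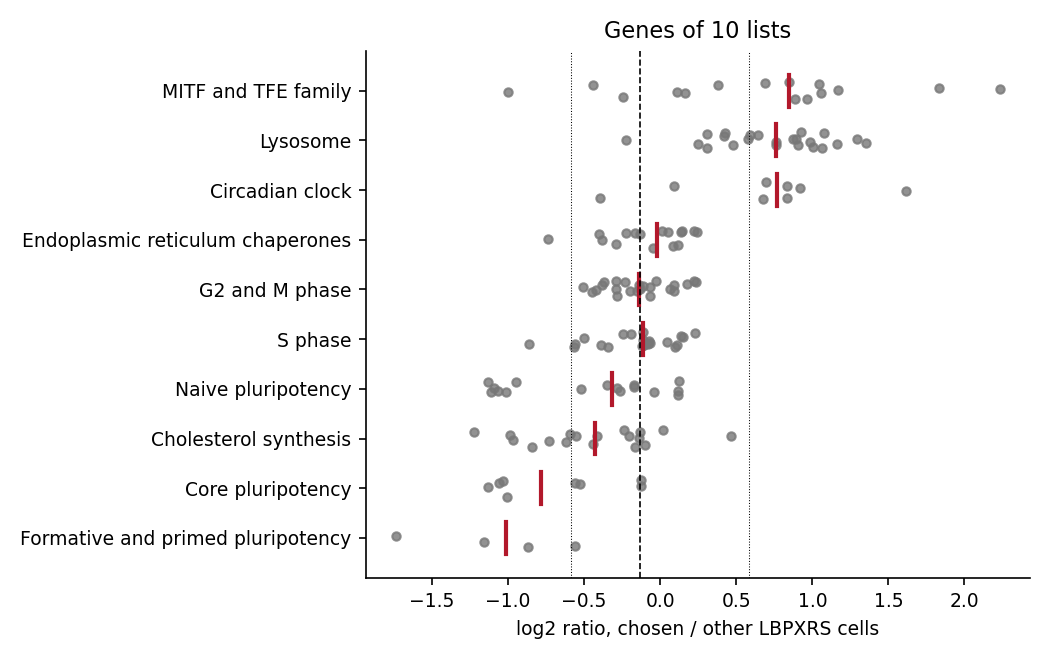
log2 ratio between the Gata2 and Aqp3 high cells and the other LBPXRS cells for each tested gene of 10 lists (grey points; vertical position within a list is arbitrary), with the list median in red, the median of all genes (-0.14) dashed and the 1.5-fold limits dotted. The medians of the MITF and TFE, lysosome and clock lists (0.85, 0.76 and 0.76) lie right of the upper limit, the last only at the 10 CPM minimum and not at 1 CPM (0.39), and those of the core and formative lists left of the lower one, except that the core median was -0.52 with the score from thinned cells and the formative one -0.56 at 1 CPM.

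The windows of a regulator, a channel and a clock repressor of these lists are shown because they hold E-boxes. Fnip1 (chr11:54437929-54438228, plus strand) has 1 E-box, Mcoln1 (chr8:3500269-3500568, plus strand) has 2, and Ciart (chr3:95882179-95882478, minus strand) has 3. Capitals mark CACGTG.
Fnip1: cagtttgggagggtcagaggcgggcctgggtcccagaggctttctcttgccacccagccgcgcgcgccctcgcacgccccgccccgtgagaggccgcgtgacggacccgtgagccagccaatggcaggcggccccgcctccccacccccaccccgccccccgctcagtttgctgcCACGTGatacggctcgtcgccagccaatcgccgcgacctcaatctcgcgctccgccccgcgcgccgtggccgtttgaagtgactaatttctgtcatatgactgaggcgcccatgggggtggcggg
Mcoln1: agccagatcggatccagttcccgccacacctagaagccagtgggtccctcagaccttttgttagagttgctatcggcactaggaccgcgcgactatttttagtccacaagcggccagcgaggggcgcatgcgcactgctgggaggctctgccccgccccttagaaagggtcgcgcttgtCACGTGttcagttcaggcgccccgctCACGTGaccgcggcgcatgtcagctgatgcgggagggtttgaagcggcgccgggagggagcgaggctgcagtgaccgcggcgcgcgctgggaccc
Ciart: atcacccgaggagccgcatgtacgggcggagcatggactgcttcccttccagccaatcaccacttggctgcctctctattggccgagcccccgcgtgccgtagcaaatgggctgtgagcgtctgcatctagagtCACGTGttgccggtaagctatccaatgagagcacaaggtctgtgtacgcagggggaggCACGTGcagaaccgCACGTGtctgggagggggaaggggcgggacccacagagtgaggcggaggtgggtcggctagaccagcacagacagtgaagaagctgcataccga

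Of 238 higher genes with a RefSeq window, 73 (30.7%) held the E-box, against 45 of 437 lower genes (10.3%), 768 of 5684 tested genes (13.5%) and 8.09% of all 27025 genes in the table. It was in 9 of 18 genes of the lysosome list, 3 of 18 of the MITF and TFE list (16.7%) and 4 of 15 of the clock list (26.7%). The M-box was in 17 of the 238 higher genes (7.14%), in 8 of the lower genes (1.83%) and in 2.41% of tested genes. The GATA motif was in 16 of the 238 higher genes, 25 of the 437 lower genes and 398 of the 5684 tested genes. These shares are descriptions, and the windows of Gpnmb, Flcn, Fnip2 and Rragd held neither the E-box nor the M-box.

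The pluripotency genes of the high cells did not differ as 1 group. Pou5f1, the central factor of the network, stood at 920 CPM (897 to 944) against 1006 (996 to 1016), a log2 ratio of -0.13, near the median of all genes. Sox2, its partner, stood at 116 (108 to 124) against 255 (250 to 260) CPM, a log2 ratio of -1.13. The core list had 4 of 8 tested genes lower and none higher, with a median of -0.79, and the others were L1td1, Lin28a and Utf1 at -1.06, -1.03 and -1.01. Of 16 naive genes, all tested, 6 were lower and none higher, with a median of -0.32. Nanog stood at 88.1 against 194 CPM (-1.13), Klf4 at 107 against 232 (-1.11) and Zfp42 at 291 against 562 (-0.95). Prdm14, Nr5a2 and Spic, at lower levels, gave -1.09, -1.06 and -1.02, and Prdm14 was -0.56 with the score from thinned cells. Esrrb, Nr0b1, Dppa5a and Tdh, all naive genes too, gave 0.12, 0.12, 0.11 and -0.04.

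Of the formative list, 4 of 14 genes were tested: Otx2, Tcf7l1 and Sox4 (-0.87) were lower and Etv5 gave -0.56. Below the tested level, the DNA methyltransferase gene Dnmt3a stood at 8.54 against 5.65 CPM, a ratio of 1.51 (1.11 to 2.03), and its relative Dnmt3b at 2.90 against 5.88, a ratio of 0.493 (0.291 to 0.787). Fgf5 had no UMI in the high cells and 1 in the others. Most trophoblast markers had low counts in the high cells, and 2 of 16 were tested, Tfap2c at 29.7 against 52.5 CPM (-0.80, and -0.46 with the score from thinned cells) and Ascl2 at 16.2 against 11.5 (0.45). Cdx2 had no UMI in the high cells and 1 in the others, Hand1 had none in either, and Gata3 stood at 5.34 CPM (3.72 to 7.42) against 7.99 (7.14 to 8.91). The summed trophoblast list was 74.7 CPM in the high cells, 92.3 in the others and 673 in LB. For that list the rule had removed the cells with the most Krt8 and Krt18. Of 13 GATA2 partners and relatives, only the adaptor gene Ldb1 was tested, at 45.9 against 52.7 CPM (-0.20). Lmo2, another adaptor gene, stood at 1.83 against 1.12 CPM, a ratio of 1.64 (0.789 to 3.15), while Tal1 and Fli1 had no UMI in either group and Lyl1 had 0 and 5. None of the 14 mesoderm or 10 neural markers reached the tested level, and the 5 tested of the primitive endoderm list had a median of -0.15. Among 2-cell embryo genes only Ddit4l was tested, at -0.18, and Zscan4c and Zscan4d had no UMI in the high or the other cells.

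Signalling genes differed one by one. Of the ERK feedback list, 4 were tested: Dusp4 was higher, Spry2 (-0.61) and Ier3 (-0.92) were lower, and Etv5 was not past the limit. Spry2 was -0.18 when cells were chosen without Aqp3 and under the limit in 7 of 23 settings, and Ier3 was -0.44 with the score from thinned cells. Dusp6, too low to be tested, had 2 UMIs in the high cells and 39 in the others, a ratio of 0.315 (0.0369 to 1.22). Of the BMP list, 5 were tested and Id1 alone was past 1.5-fold. Id3, too low to be tested, had 3 UMIs in the high cells and 273 in the others, a ratio of 0.0675 (0.0138 to 0.20). Id2, at 28.7 against 34.0 CPM, gave -0.24. Aqp8, another water channel, was the other aquaporin at a tested level, at 16.2 CPM (13.2 to 19.5) against 2.11 (1.68 to 2.61) and with no UMI in LB. Of 18 tested sterol synthesis genes, 7 were lower and none higher, with a median of -0.43, among them Sqle (-0.99) and Hmgcs1 (-0.97). The fatty acid list had 3 of 9 lower, with Fasn at -1.03 and Scd2 at -0.97.

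The medians of the growth and stress lists lay near that of all genes, although the G2 and M share per cell was lower in the high cells. The S phase list had a median of -0.12, with 1 of 21 genes lower, and the G2 and M phase list -0.14, with none of 23 past 1.5-fold. The G2 and M genes took a median of 0.241% of UMIs in the high cells and 0.318% in the others. Of 18 tested genes of the integrated stress response, with a median of -0.22, Chac1 and Trib3 (-1.05) were lower. Ddit3, a transcription factor gene of that response, stood at 180 against 120 CPM, just under the upper limit at a log2 ratio of 0.58. Tet1 and Tet2, the enzymes that oxidise methylated cytosine, gave -0.66 and -1.06, and Tet1 was -0.48 with the score from thinned cells. In the simple epithelium list Cldn4, a tight junction protein gene, was higher at 137 against 47.2 CPM (1.52), while Krt19 stood at 0.762 against 0.546 CPM.

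Several of the differences changed step by step along the rule score, and others did not. Cells were placed on the score from a random part of their UMIs and levels read from the UMIs held out. The groups were 1439 cells with no rule-gene UMI, 631 below the 15% limit, and the lower 183 and upper 182 of the cells above it, with median depths of 18730, 20771, 18290 and 17587 UMIs. Bhlhe41 stood at 1.49, 4.16, 13.4 and 26.7 CPM in these groups and Dusp4 at 4.78, 9.65, 28.5 and 57.9. The lysosome list summed to 1835, 2155, 2887 and 4005 CPM and the MITF and TFE list to 237, 246, 302 and 358. The clock list was 115, 120, 119 and 178 CPM, higher only in the last group, and the naive list 7189, 7367, 7306 and 6567, lower only there. Id1 stood at 26.6, 10.8, 2.23 and 1.30 CPM, the last resting on 2 UMIs, Mycn at 103, 79.7, 35.2 and 17.6, and Otx2 at 46.8, 36.7, 14.0 and 11.1. Nanog stood at 206, 190, 104 and 65.1 CPM and Sox2 at 262, 219, 145 and 82.6, while Pou5f1 stood at 1019, 967, 946 and 941. Between the 2 groups above the limit the intervals did not overlap for Dusp4, the lysosome list, Mycn, Nanog and Sox2, and they overlapped for Bhlhe41, Id1, Otx2 and Pou5f1. Within reach of the limit, 88 of the high cells scored at most 1.25 times it and 89 of the other cells at least 0.8 times it. Of the 365 cells above the limit in this split, 287 were among the high cells. The high cells are a range of the score by construction, and whether they form a separate class was not tested.

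**Figure D5:**
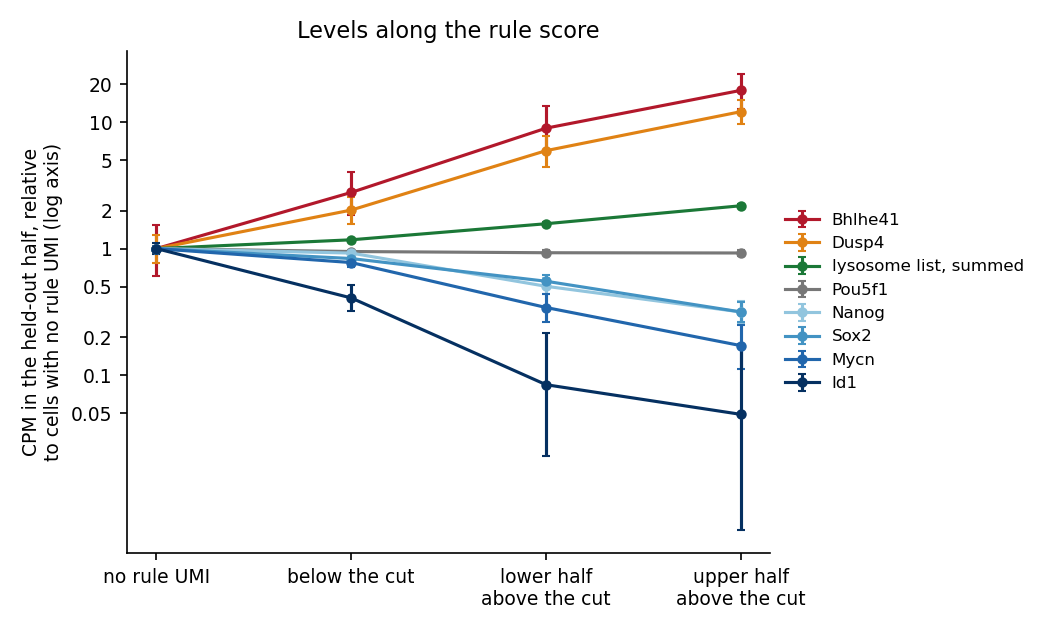
CPM in the UMIs held out of the choice, relative to cells with no rule-gene UMI (log axis), for 4 groups of LBPXRS cells ordered by the rule score; bars are exact 95% Poisson intervals divided by the level of the first group. Bhlhe41 and Dusp4 go up to 26.7 and 57.9 CPM, Pou5f1 stays between 941 and 1019 CPM, and Id1 goes down from 26.6 to 1.30 CPM.

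Within the high cells, Aqp3 gave the most rule-gene UMIs in 209 cells, Gata2 in 73, Trpm1 in 23 and Slc26a11 in 11, and 49 had a tie. Dusp4 stood at 71.4 CPM (58.3 to 86.6) in the Gata2-led cells and 37.5 (31.5 to 44.2) in the Aqp3-led ones. Nanog stood at 63.1 CPM (50.8 to 77.5) in the former and 94.1 (84.5 to 104) in the latter, and Sox2 at 92.2 (77.2 to 109) and 120 (110 to 132). The lysosome list, like Nanog and Sox2, was lower in Gata2-led cells, with 3270 CPM (3178 to 3365) against 3755 (3693 to 3818) in Aqp3-led cells. Bhlhe41 did not differ beyond counting error, at 25.7 (18.1 to 35.4) and 21.8 (17.3 to 27.1) CPM, and Id1 stood at 2.08 and 2.16 CPM. The 2 kinds of cell had median depths of 20270 and 17874 UMIs.

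Applied to LB, the same rule took 241 cells and left 1364, but with other weights of the rule genes. Trpm1 supplied 48.9% of the rule-gene UMIs of the chosen LB cells and Gata2 8.87%, and their lower limit was 29.7 CPM of the rule genes together. Only 10 LB cells (0.561%) reached the LBPXRS limit. There, 141 of 7169 tested genes were higher (1.97%) and 354 lower (4.94%). Of the 302 genes higher in LBPXRS, 173 were tested in LB, and 30 of these were higher and 3 lower there. The 30 include Aqp3, Trpm1 and Slc26a11, which were high by construction in both libraries. Of the 528 lower genes, 477 were tested in LB, with 19 lower and 11 higher. S100a13 gave 1.88, Rab3il1 1.29 and Ahnak2 1.06 in LB, whereas Dusp4 gave -0.23, Cyba 0.05 and Bhlhe41 0.50. Of the lower genes, Id1 gave -0.73 and Chac1 -0.92 in LB, whereas Mycn gave -0.18 and Nfib 0.91. The lysosome list had a median of 0.20, the MITF and TFE list 0.11, the clock list 0.06 and the naive list 0.65, against -0.09 for all LB genes. The sterol and fatty acid synthesis lists had LB medians of -0.46 and -0.52, against -0.43 and -0.20 in LBPXRS. The BMP list had -0.63 in LB and -0.24 in LBPXRS, while the core list had 0.01 and -0.79. The differences between the libraries were not tested.

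Without the cells under 0.5% mitochondrial UMIs, 248 genes were higher and 488 lower. Bhlhe41 then gave 2.48 and Id1 -2.77, and the medians of the lysosome, MITF and TFE, clock, core and naive lists were 0.71, 0.73, 0.59, -0.71 and -0.25, so each kept its direction in the remaining cells.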

How the data were processed

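The UMI counts are those the authors deposited. Per the file headers they come from Cell Ranger 4.0.0, and the genome was mm10 per the submitters' processing notes. The annotation, strand setting and cell-calling settings are not given in the sources used here. Per the labels' protocols, the kit was the 10x Genomics Chromium 3′ kit, v2. From the counts, UMIs were summed over cells and scaled to CPM (a total of 1000000). Log2 ratios use a pseudocount of 1, which understates the change of low genes. Named genes were the rule genes, Bhlhe41, the 15 highest and 15 lowest log2 ratios at 20 CPM or more in either group, and members of the lists; 1 of the lowest is not reported here. Other genes were chosen after their values were seen. The members, the lists and this rule were chosen with earlier results of these data known. Intervals are exact (Poisson, binomial) at 95% and cover counting error only. For shares, cells were thinned to 5000 UMIs. Gene identifiers matched GENCODE M21 in 32235 of 32285 cases. Promoters of 16 of 20 genes looked for were found in the RefSeq table. The scripts were tested on simulated data. Tools were Python 3.11.15, numpy 2.4.6, pandas 2.3.3, scipy 1.17.1, scanpy 1.11.5 and edgeR 4.0.16, the last only for TMM scaling. Alternatives changed the share of cells taken, the keratin drop, the score, the filters, the scaling, the pseudocount and the CPM minimum.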

Additional observations from a re-analysis of the deposited data

Results flagged for a closer look

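With the same rule in both libraries, 4 named genes lay on opposite sides in LBPXRS and LB, each past 1.5-fold. The log2 ratio of Inka1 was 1.77 in LBPXRS and -0.91 in LB, and that of Nfib -1.19 and 0.91. Klf4 gave -1.11 in LBPXRS and 1.16 in LB, and Zfp42 -0.95 and 0.66. With 1 library per condition the difference was not tested, and Trpm1 gave more of the rule-gene UMIs of the chosen LB cells than the other rule genes did singly.

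The 406 LBPXRS barcodes left out by the filters held rule-gene UMIs at 461 CPM (413 to 513, from 336 UMIs), against 110.5 CPM in the kept cells. The left-out LB barcodes held 33.8 CPM (21.9 to 49.9), against 11.5 CPM in the kept LB cells. Most came from 65 LBPXRS barcodes over the mitochondrial limit, with a median of 5342 UMIs, where Aqp3 stood at 648 CPM (570 to 735), Gata2 at 37.2 and the summed lysosome list at 7904. These barcodes were in no comparison.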

How the results depend on the processing

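Of 111 rule, named and list genes and 6 list medians past 1.5-fold and recomputed in the settings, none changed direction, but 31 genes and 4 medians were under 1.5-fold in at least 1 setting. Genes below the tested level and Fabp3 were not recomputed. The log2 ratio of Gata2 with its own counts left out, 2.93, was 2.54 with the keratin-high cells added to the others, 2.26 with the score from thinned cells, and 2.73 and 2.75 with either random split of the UMIs. That of Aqp3, 2.34, was 2.12, 1.54, 2.07 and 2.10 in these settings and 2.14 with 20% of cells taken. Slc26a11, 2.12, was 1.69 with the thinned score, and Trpm1, 1.74, was 1.45 with the first random split. Higher and lower genes numbered 180 and 200 with the thinned score, 183 and 299 at a CPM minimum of 20, 643 and 1170 at a minimum of 1, and 87 and 51 at 2-fold. Lower genes numbered 340 with 20% of cells taken and 285 with TMM scaling. Medians ranged from 0.60 to 0.89 for lysosome genes, 0.61 to 0.95 for MITF and TFE genes, 0.39 to 0.88 for clock genes, -0.91 to -0.52 for core genes and -1.20 to -0.56 for formative genes. The second random split and the 2-fold limit were chosen after seeing the data. Grb10, at 10.4 CPM in the 365 high cells, had 68 UMIs there, which limits the precision of values near the 10 CPM minimum. No paired analysis was possible because each condition has 1 library and no test was run.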

Other observations

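Of the 11 tested genes of the NRF2 and iron list, Tfrc, the transferrin receptor gene, and Srxn1 (-0.62) were lower and none was higher. Tfrc stood at 7.32 CPM (5.40 to 9.70) in the Gata2 and Aqp3 high cells against 13.4 (12.3 to 14.6) in the other cells. Both were under the limit in some settings, Tfrc in 5 of 23 and Srxn1 in 10. Ftl1, the ferritin light chain, did not pass 1.5-fold, at 23510 against 17260 CPM (0.45), with 4753 in LB. Fth1, the heavy chain, gave -0.13, near the median of all genes.

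Among LIF and STAT3 genes, Socs3, the feedback inhibitor of the pathway, gave 0.26, Stat3 0.29 and Pim1 0.24. The receptor chain Il6st gave -0.68 and Bcl3 -0.98, and with Klf4 these were the 3 of 10 tested genes that were lower, although Il6st was -0.37 and Bcl3 -0.52 with the score from thinned cells. Of the DNA methylation list, Dnmt1 gave -0.03 and Uhrf1 0.14 beside the lower Tet1 and Tet2. Fabp3, a fatty acid binding protein gene chosen after its values were seen, stood at 639, 868, 1520 and 2115 CPM in the 4 groups ordered by the rule score.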
